A study of Mus musculus with 16 samples.

Results

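Skeletal muscle fibres are packed with sarcomeres, in which thick filaments of myosin slide along thin filaments of actin, tropomyosin and troponin that are anchored in the Z disc. An action potential opens calcium release channels of the sarcoplasmic reticulum, calcium binds troponin, and a pump returns the calcium to the store, while creatine kinase, glycogen breakdown and glycolysis refill the ATP that is spent. Fast and slow fibres carry separate genes for myosin and troponin, and the mouse foot holds small intrinsic muscles beside skin, tendon, joint and bone, so that footpad RNA contains transcripts of all of them.

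The 40 genes described here are a list of contractile, structural, calcium handling and metabolic genes of skeletal muscle, out of 19938 genes measured. Each gene of the list was found by its symbol in the annotation of the array, and where several probe sets named it the brightest over all arrays was taken. All 40 were found, and no filter on low signal was applied. By role, 6 belong to the thick filament, 9 to the thin filament, 8 to the Z disc and scaffold, 6 to calcium handling, 7 to energy metabolism, and 4 (Asb5, Yipf7, Art3 and Myo18b) to none of these. The study itself names 5 of them (Yipf7, Phkg1, Myo18b, Art3 and Asb5) among genes that differed on these same arrays, so those 5 are not independent evidence of a direction. The whole list was chosen with earlier results of these data known, so the other 35 are not independent evidence either.

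Total RNA of footpads was hybridized to 16 Affymetrix Mouse Gene 1.0 ST arrays, and each value is a normalized log2 signal, so that a difference of 1 is a 2-fold change. AIRmax and AIRmin are non-inbred mouse lines bred for a strong and a weak acute inflammatory response. The 4 groups were AIRmax pristane, AIRmax control, AIRmin pristane and AIRmin control, with 4 arrays each, 2 from males and 2 from females. The labels give every group, controls included, the same protocol of 2 intraperitoneal injections of 0.5 ml of pristane, a mineral oil, 60 days apart. Footpads of the pristane groups were taken on day 160, and controls are read here as day 0. Whether control mice had been injected is not stated in the labels. The labels give every group an age of 2 to 4 months, and treatment and elapsed time cannot be told apart. The study describes the arrays of a group as biological replicates. Whether an array holds the RNA of 1 mouse or of several is not given in the sources used here, and p values measure the spread between arrays. Arrays of a group correlated at 0.9619 to 0.992 over the 19938 genes. No 2 arrays were identical, and array medians over all probe sets lay between 5.435 and 5.53.

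The presence of skeletal muscle RNA in the footpads was borne out by Acta1 (skeletal alpha-actin, the main thin filament protein), which had log2 signals of 9.99 to 12.50 on the 16 arrays. Mb, the oxygen-binding myoglobin of muscle fibres, lay between 8.74 and 12.05. Xist, which males do not express, gave 3.45 to 4.32 on the male arrays and serves as a measure of background. Sln (sarcolipin, an inhibitor of the calcium pump) lay inside or next to that range on all arrays, at 3.40 to 4.14, and so no level of it above background was shown in any group. In RNA of a whole tissue, fewer muscle fibres and less muscle RNA per fibre cannot be told apart.

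The promoters of the members whose differences between groups are described below are shown for what the genes share in sequence. RefSeq promoters (GRCm38.p6) were at hand for 29 of the 40 members, as 41 entries. The first entry of each gene was used, and whether its start site is the one used in muscle was not tested. The 250 bases before the start were searched on both strands for 6 motifs. The E-box CANNTG, the core bound by myogenic basic helix-loop-helix factors, was in 24 of the 29 (82.8%, against 66% of 27025 promoters of all genes), and its form CAGCTG, a subset of E-boxes, was in 12 (41.4%, against 12.8%). The MEF2 site, bound by a partner of those factors, was in 5 (17.2%, against 3.01%), namely in Xirp2, Ttn, Myh1, Myh4 and Pvalb. The CArG box, bound by serum response factor, was in Asb5, Acta1 and Myh4 (10.3%, against 1.4%), CATTCC, the core bound by TEAD factors, was in 8 (27.6%, against 12.6%) and TATAAA was in 7 (24.1%, against 13%). These shares describe letters and not bound sites. In the sequences, capitals mark a match to any of the motifs.

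Sequences of 250 bases before the start site, written 5′ to 3′ on the strand of the gene, follow for 5 members.
Myh4 (chr11:67237562-67237811, plus strand): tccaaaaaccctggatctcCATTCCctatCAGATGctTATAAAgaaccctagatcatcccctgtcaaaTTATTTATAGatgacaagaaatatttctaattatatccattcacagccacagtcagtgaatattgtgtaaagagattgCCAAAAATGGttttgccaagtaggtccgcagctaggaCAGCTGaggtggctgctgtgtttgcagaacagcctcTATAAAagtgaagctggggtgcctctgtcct
Tnnc1 (chr14:31208062-31208311, plus strand): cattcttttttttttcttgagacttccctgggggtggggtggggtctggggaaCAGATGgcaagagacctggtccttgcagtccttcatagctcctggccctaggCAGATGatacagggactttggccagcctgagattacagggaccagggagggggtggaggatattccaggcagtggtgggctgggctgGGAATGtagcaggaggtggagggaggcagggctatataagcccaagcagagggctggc
Actn2 (chr13:12340733-12340982, minus strand): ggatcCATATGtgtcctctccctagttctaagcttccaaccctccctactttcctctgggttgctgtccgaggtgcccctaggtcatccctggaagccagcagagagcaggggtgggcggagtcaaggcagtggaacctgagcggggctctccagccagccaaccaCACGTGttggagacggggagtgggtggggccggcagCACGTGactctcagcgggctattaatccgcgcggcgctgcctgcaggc
Mb (chr15:77050669-77050918, minus strand): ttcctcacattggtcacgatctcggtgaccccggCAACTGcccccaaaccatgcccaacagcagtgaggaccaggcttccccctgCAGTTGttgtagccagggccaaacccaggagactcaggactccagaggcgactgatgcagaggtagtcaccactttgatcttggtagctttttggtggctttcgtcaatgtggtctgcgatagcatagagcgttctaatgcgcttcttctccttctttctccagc
Art3 (chr5:92331577-92331826, plus strand): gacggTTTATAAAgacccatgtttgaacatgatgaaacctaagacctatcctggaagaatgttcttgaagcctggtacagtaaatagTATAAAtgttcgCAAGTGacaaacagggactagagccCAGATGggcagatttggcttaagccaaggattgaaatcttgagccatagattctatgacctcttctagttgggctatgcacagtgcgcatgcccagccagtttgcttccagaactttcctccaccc

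Myh4, the fast myosin heavy chain IIb, is shown because its promoter held all 6 motifs, with the MEF2 match overlapping a TATAAA match. Tnnc1, Actn2 and Mb are shown as members lower in AIRmax than in AIRmin pristane footpads, and Art3 as the member lower in AIRmax pristane than in AIRmax control footpads. The promoters of Tnnc1, Actn2, Mb and Art3 each held 2 or 3 E-boxes, none of them CAGCTG. Asb5, also lower in AIRmax than in AIRmin pristane footpads, had no E-box in its promoter, which held a CArG box and 2 TATAAA matches. Promoters of Myot and Yipf7, lower in the same comparison, were not at hand. Of the thick filament genes, Myh2 and Myh1 lie 2.6 kb apart and Myh1 and Myh4 13.2 kb apart on chromosome 11, and the fast troponin genes Tnni2 and Tnnt3 lie 54.4 kb apart on chromosome 7.

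Muscle genes were lowest in AIRmax pristane footpads. The mean log2 signal of the 40 members was 8.14, 8.61, 7.20 and 7.53 on the AIRmax pristane arrays, against 8.93, 8.86, 8.92 and 8.35 on the AIRmax control arrays. It was 9.02, 8.98, 9.28 and 8.93 on the AIRmin pristane arrays, against 9.06, 9.48, 9.27 and 8.10 on the AIRmin control arrays. The group means were 7.87 ± 0.63, 8.77 ± 0.28, 9.05 ± 0.15 and 8.98 ± 0.61 in that order (SD, n = 4 each). AIRmax pristane arrays thus lay below all AIRmin pristane arrays, while 1 of them, the second male, lay above the lowest AIRmax control array. Within 3 groups 1 or 2 female arrays were low: both AIRmax pristane females, 1 AIRmax control female and 1 AIRmin control female.

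**Figure D1:**
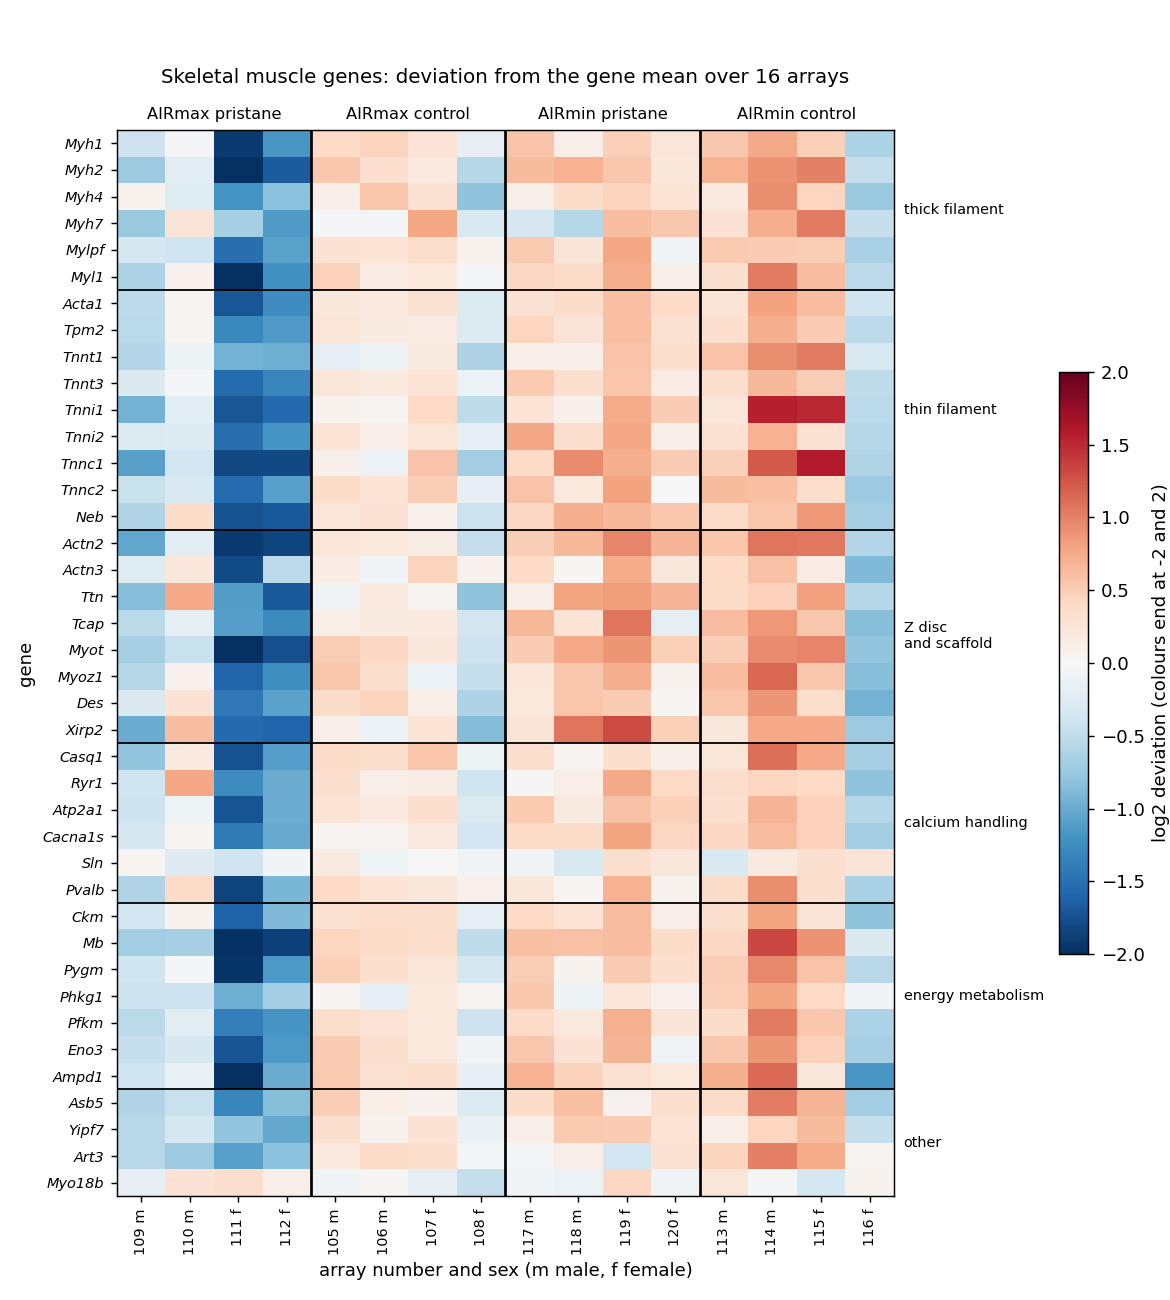
Deviation of the log2 signal of each of the 40 members (rows, by role) from its mean over 16 arrays (columns, by group, with array number and sex), with colour from blue (lower) to red (higher). Blue fills most of the AIRmax pristane columns, above all the 2 females 111 and 112, while arrays 108 and 116 are the palest or bluest of the 2 control groups, and Sln and Myo18b stand apart from the other rows.

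In the AIRmax line, pristane footpads were compared with control footpads to find the response of the line prone to arthritis. The log2 fold change was below 0 for 39 of 40 members, against 44.3% of all genes, with a median of -0.93 (a ratio of 0.52), while the median of all genes was 0.03. Art3 alone passed an adjusted p of 0.05 (limma, adjusted over all genes by Benjamini-Hochberg), as 1 of 40 lower, where 0.14% of all genes were called lower, and 28 members had an unadjusted p below 0.05 and were lower, against 6.9% of all genes. All 4 pristane arrays lay below all 4 control arrays for 10 members (Mylpf, Tnni2, Tnnc2, Myot, Mb, Phkg1, Eno3, Asb5, Yipf7 and Art3), which held for 4.3% of all genes. Of the 35 members that the study does not name, none was called, 35 had a fold change below 0 and 6 had groups that did not overlap.

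Art3, a member of the ADP-ribosyltransferase family that is expressed in muscle, had log2 signals of 6.90, 6.74, 6.37 and 6.64 in AIRmax pristane footpads, against 7.66, 7.85, 7.81 and 7.44 in AIRmax control footpads. The groups did not overlap, and the fold change was -1.03 (SE 0.14, adjusted p = 0.0297, limma). In AIRmin footpads Art3 gave 7.43, 7.59, 7.07 and 7.77 with pristane, against 7.91, 8.47, 8.20 and 7.51 in controls, with 2 overlapping groups and a difference of -0.56 (SE 0.21, adjusted p = 0.318, limma), which was the only one of the 40 members below an unadjusted p of 0.05 in that line. Since Art3 was one of the genes the study names, its call is a description. With any of arrays 105, 106, 107, 110, 111 or 112 left out the adjusted p lay between 0.0576 and 0.117, while the fold change stayed between -0.93 and -1.06.

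Yipf7, a membrane protein of the Yip1 domain family, had log2 signals of 4.09, 4.29, 3.85 and 3.62 in AIRmax pristane footpads, against 4.96, 4.72, 4.94 and 4.51 in AIRmax control footpads, without overlap (-0.82, SE 0.16, adjusted p = 0.0849). The AIRmax pristane values lie within the range of Xist in males, so the size of this difference is limited by background. Phkg1, the catalytic subunit of muscle phosphorylase kinase, which turns on glycogen breakdown, gave 5.59, 5.59, 5.04 and 5.34 in AIRmax pristane footpads, against 6.06, 5.84, 6.23 and 6.07 in AIRmax control footpads, again without overlap (-0.66, SE 0.14, adjusted p = 0.104). Mylpf, the regulatory light chain of fast myosin, gave 8.38, 8.34, 7.22 and 7.67 in AIRmax pristane footpads, against 9.03, 9.01, 9.08 and 8.81 in AIRmax control footpads (-1.08, SE 0.25, adjusted p = 0.116). The differences of Yipf7, Phkg1 and Mylpf did not pass the adjusted threshold.

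By role, the median log2 fold change in AIRmax was -1.10 for the 6 thick filament genes, -0.96 for the 9 thin filament genes, -0.78 for the 8 Z disc genes, -0.80 for the 6 calcium handling genes and -1.05 for the 7 energy genes. All 7 genes of energy metabolism had an unadjusted p below 0.05, from creatine kinase Ckm (-0.91), glycogen phosphorylase Pygm (-1.05), phosphofructokinase Pfkm (-0.93), enolase Eno3 (-1.16) and AMP deaminase Ampd1 (-1.16) to Mb (-1.46). Among the calcium genes the changes were -1.15 for the store protein Casq1, -0.94 for the pump Atp2a1, -0.99 for the calcium buffer Pvalb, -0.66 for the voltage sensor Cacna1s and -0.52 for the release channel Ryr1. Calls after adjustment were 0 in each of these roles.

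In AIRmin footpads the members lay on both sides of 0. The log2 fold change of pristane over control footpads was below 0 for 12 of 40 members (45.3% of all genes), with a median of 0.10, against 0.02 for all genes. This median took the other sign, -0.21, without array 116, an AIRmin control female, and lay between 0.03 and 0.27 with any other array left out. No member and none of the 19938 genes (0%) passed the adjusted threshold (limma), while 2469 genes (12.4%) had an unadjusted p below 0.05, among them only Art3 of the members. No member had groups without overlap, against 4.32% of all genes with pristane lower and 3.19% with pristane higher.

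The members with the smallest p beside Art3 were higher rather than lower. Xirp2, an actin-binding protein of cell junctions in striated muscle, gave 7.58, 8.39, 8.63 and 7.79 in AIRmin pristane footpads, against 7.54, 8.08, 8.07 and 6.60 in AIRmin control footpads (0.53, SE 0.34, adjusted p = 0.583). Tnni2, the inhibitory troponin of fast fibres, gave 9.52, 9.08, 9.52 and 8.85 in AIRmin pristane footpads, against 9.05, 9.44, 9.03 and 8.17 in AIRmin control footpads (0.32, SE 0.26, adjusted p = 0.672). Ttn, the giant spring protein titin, gave 8.91, 9.58, 9.64 and 9.48 in AIRmin pristane footpads, against 9.16, 9.26, 9.62 and 8.22 in AIRmin control footpads (0.34, SE 0.28, adjusted p = 0.682). For Xirp2, Tnni2 and Ttn the groups overlapped, and the lowest control value was that of array 116, the AIRmin control female that was lowest of its group for 38 of 40 members.

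**Figure D2:**
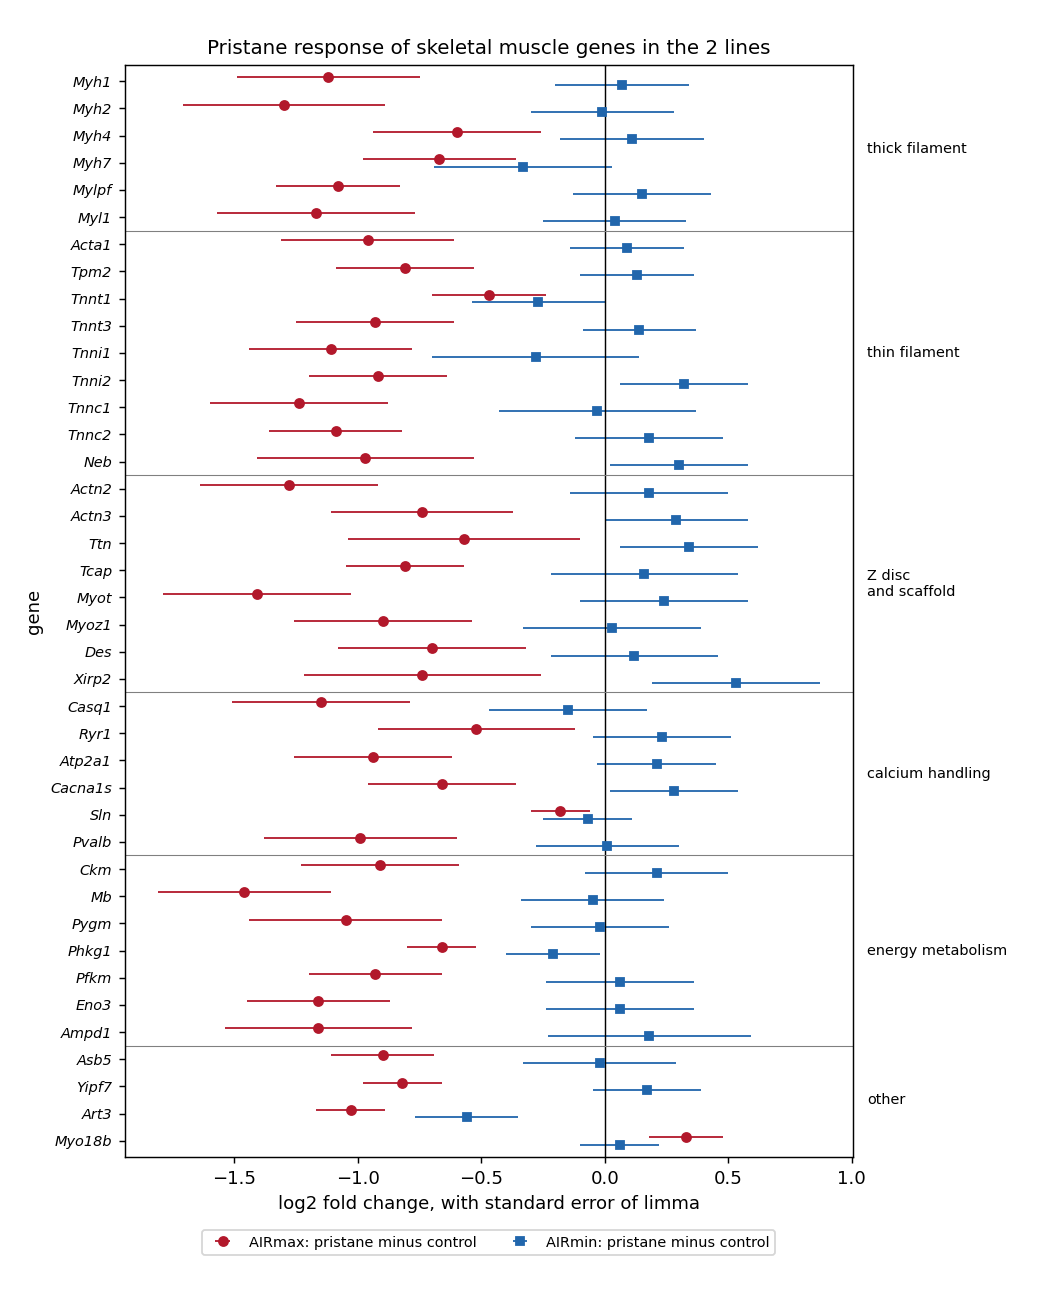
Log2 fold change of pristane over control footpads (horizontal axis, with limma's standard error) for the 40 members by role, in AIRmax (red circles) and AIRmin (blue squares). In AIRmax 39 of 40 members lie below 0, around a median of -0.93, and in AIRmin 12 of 40, around a median of 0.10.

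The difference between the 2 responses was tested as an interaction on all 16 arrays. AIRmax minus AIRmin response was below 0 for 39 of 40 members (48.7% of all genes), with a median of -1.01. No member passed the adjusted threshold in limma (0% of all genes were called lower and 0.171% higher), and 21 had an unadjusted p below 0.05 and a difference below 0, against 2.82% of all genes. The 4 members with the smallest p were Yipf7 (-1.0, SE 0.29, adjusted p = 0.27), Mylpf (-1.23, SE 0.40, adjusted p = 0.355), Myot (-1.66, SE 0.56, adjusted p = 0.39) and Tnni2 (-1.24, SE 0.42, adjusted p = 0.391). A difference between the lines in how muscle genes responded to pristane was therefore not called for any single member.

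The lines were compared directly at day 160, and this comparison shares its AIRmax pristane arrays with the one described above. The log2 difference, AIRmax minus AIRmin, was below 0 for 39 of 40 members (50.9% of all genes), with a median of -1.22 (a ratio of 0.43), against -0.01 for all genes. Lower at an adjusted p below 0.05 were 6 of 40 members (Tnnc1, Actn2, Myot, Mb, Asb5 and Yipf7), where 0.507% of all genes were called lower, and no member was called higher (0.853% of all genes). An unadjusted p below 0.05 with a lower value was found for 36 members (10.1% of all genes), and 29 members had AIRmax pristane arrays all below the AIRmin pristane arrays (5.81% of all genes). Among the 35 members that the study does not name, 4 were called lower and 25 had groups that did not overlap.

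Tnnc1, the calcium-binding troponin of slow and heart muscle, had log2 signals of 7.44, 8.14, 6.71 and 6.71 in AIRmax pristane footpads, against 8.90, 9.46, 9.24 and 9.02 in AIRmin pristane footpads (-1.91, SE 0.30, adjusted p = 0.0283). Actn2, an alpha-actinin that crosslinks actin filaments at the Z disc, gave 7.57, 8.37, 6.69 and 6.77 in AIRmax pristane footpads, against 9.09, 9.27, 9.58 and 9.28 in AIRmin pristane footpads (-1.96, SE 0.34, adjusted p = 0.0331). Myot, the actinin-binding myotilin, gave 7.78, 8.0, 6.35 and 6.68 in AIRmax pristane footpads, against 8.94, 9.19, 9.32 and 8.92 in AIRmin pristane footpads (-1.89, SE 0.34, adjusted p = 0.0389). In Tnnc1, Actn2 and Myot the 2 AIRmax females had the lowest values, and the highest AIRmax array stayed below the lowest AIRmin array.

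Mb gave 10.01, 10.05, 8.74 and 8.85 in AIRmax pristane footpads, against 11.31, 11.29, 11.32 and 11.08 in AIRmin pristane footpads (-1.84, SE 0.30, adjusted p = 0.0317). Asb5, an ankyrin repeat protein with a SOCS box, gave 5.85, 6.00, 5.14 and 5.60 in AIRmax pristane footpads, against 6.81, 7.05, 6.53 and 6.76 in AIRmin pristane footpads (-1.14, SE 0.19, adjusted p = 0.0329). Yipf7 gave 4.09, 4.29, 3.85 and 3.62 in AIRmax pristane footpads, against 4.78, 5.16, 5.15 and 4.92 in AIRmin pristane footpads (-1.04, SE 0.16, adjusted p = 0.0263). None of Mb, Asb5 and Yipf7 had overlapping groups, and all 4 AIRmin pristane values of Mb lay within 11.08 to 11.32. In control footpads these genes gave 8.62, 8.40, 9.09 and 7.83 for Tnnc1 in AIRmax, against 8.99, 9.74, 10.10 and 7.91 in AIRmin, and 11.14, 11.10, 11.06 and 10.20 for Mb in AIRmax, against 11.13, 12.05, 11.61 and 10.42 in AIRmin, with overlapping groups for both.

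**Figure D3:**
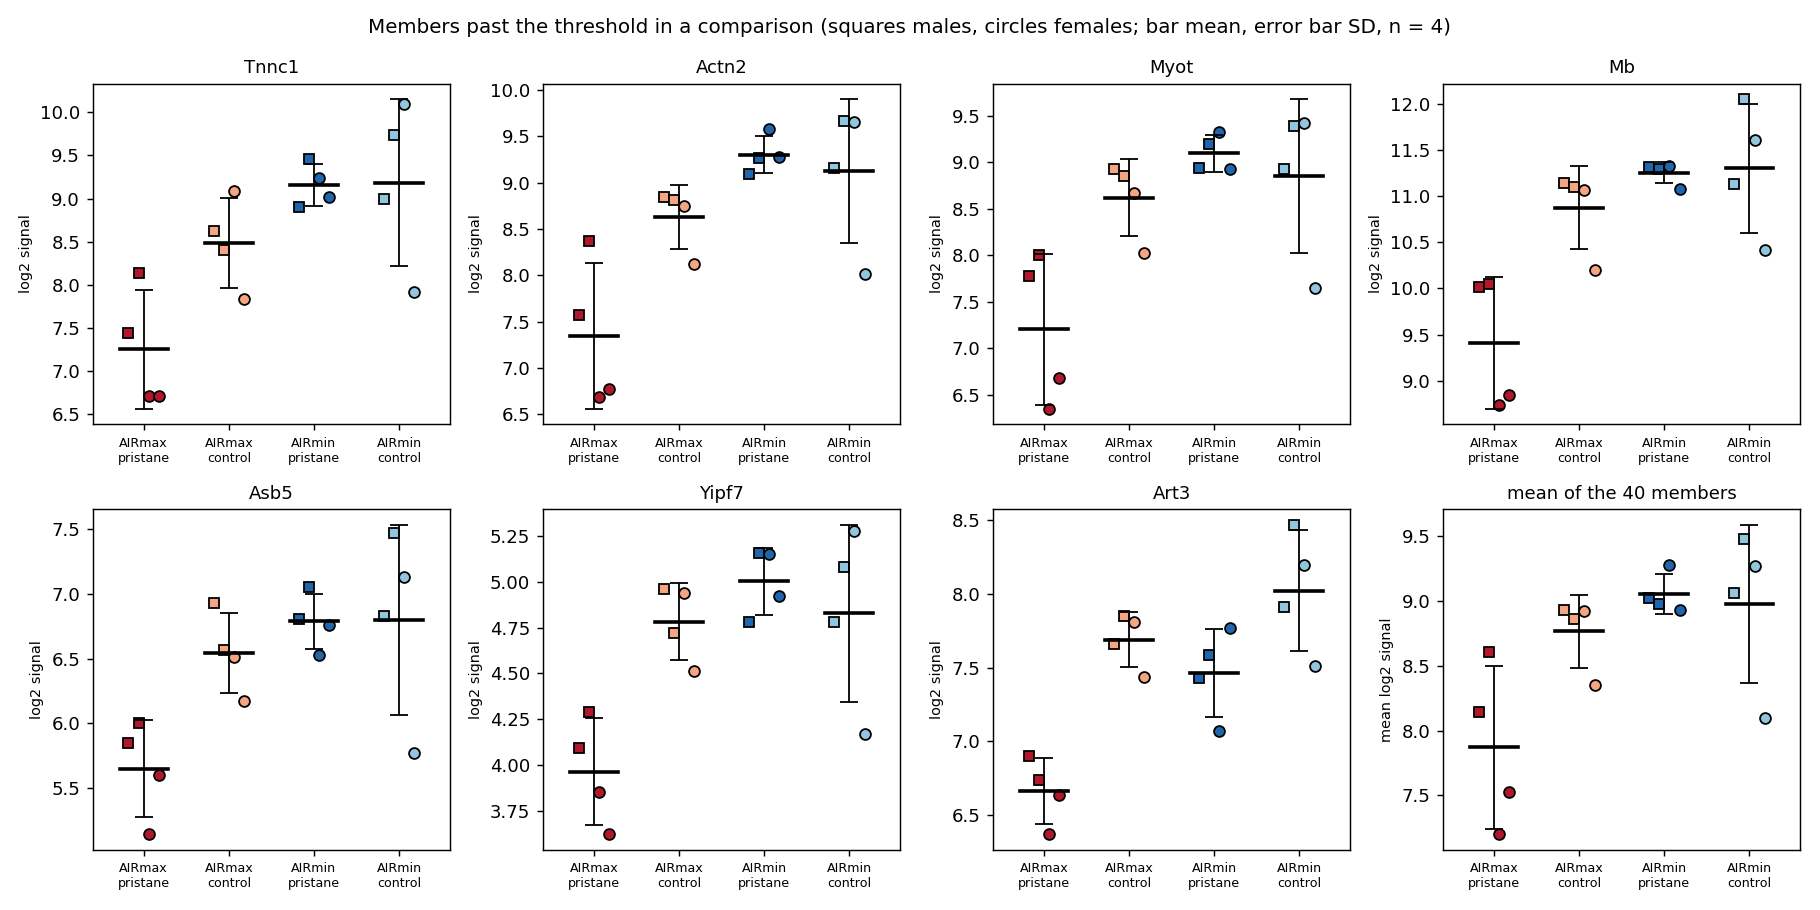
Log2 signal of the 7 members called in a comparison, and the mean log2 signal of all 40 members, on each array of the 4 groups (squares males, circles females, thick bar mean, error bar SD, n = 4). AIRmax pristane arrays lie below the AIRmin pristane arrays in each panel, with the mean of the 40 members at 7.20 to 8.61, against 8.93 to 9.28.

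The remaining members differed between the lines in the same direction without passing the threshold, apart from Myo18b. Fast myosin heavy chains of types IIx, IIa and IIb (Myh1, Myh2 and Myh4) differed by -1.24, -1.70 and -0.85, the essential light chain Myl1 by -1.38 and Mylpf by -1.20. In the thin filament, Acta1 differed by -1.27, the tropomyosin gene Tpm2 by -1.12 and Neb, a length ruler of actin filaments, by -1.51. In the Z disc, the fast fibre actinin Actn3 differed by -0.93, the titin cap Tcap by -1.23, the calcineurin-binding Myoz1 by -1.22, the intermediate filament gene Des by -0.95, Ttn by -1.33 and Xirp2 by -1.66. Adjusted p values of these genes lay above 0.05, the smallest of them for Myh2 (0.058), while Tnni1 (0.0509) and Pfkm (0.0515) were the nearest to the threshold of all members not called.

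Calls in this comparison depended on single arrays. Without AIRmax pristane array 111 or 112, or without AIRmin pristane array 117, 119 or 120, none of the 40 members was called, while 14 to 76 of all genes were, against 271 with all 8 arrays. Without array 118, 4 members were called (3 of the 6). Without AIRmax pristane array 110, the highest of its group for 34 members, 30 were called, all 6 included, among 520 of all genes. When all 16 arrays shared 1 estimate of the spread, 26 members were called, all 6 included, among 1519 of all genes. The median difference stayed between -1.42 and -0.95 when single arrays were left out.

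Control footpads of the lines were compared in the same way. The log2 difference, AIRmax minus AIRmin, was below 0 for 34 of 40 members (56.8% of all genes), with a median of -0.19, against -0.03 for all genes. Without 1 array this median was -0.48 (without 116), -0.03 (without 114), -0.06 (without 108) or -0.08 (without 115), and -0.25 to -0.16 without any of the others. No member was called in limma (0.0301% of all genes were called lower and 0.0502% higher), 1 was lower at an unadjusted p below 0.05 (8.4% of all genes), and none had groups without overlap (4.94% of all genes lower and 5.39% higher). That member was Tnnt1, the slow fibre troponin that binds tropomyosin, which gave 7.29, 7.38, 7.67 and 6.87 in AIRmax control footpads, against 8.06, 8.41, 8.52 and 7.18 in AIRmin control footpads (-0.74, SE 0.29, adjusted p = 0.251).

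Of the others with small p in control footpads, Tnni1, the inhibitory troponin of slow fibres, gave 7.32, 7.31, 7.65 and 6.74 in AIRmax, against 7.49, 8.81, 8.76 and 6.72 in AIRmin (-0.69, SE 0.44, adjusted p = 0.436). Phkg1 gave 6.06, 5.84, 6.23 and 6.07 in AIRmax, against 6.49, 6.81, 6.41 and 5.96 in AIRmin (-0.37, SE 0.17, adjusted p = 0.303). Art3 gave 7.66, 7.85, 7.81 and 7.44 in AIRmax, against 7.91, 8.47, 8.20 and 7.51 in AIRmin (-0.33, SE 0.19, adjusted p = 0.399). The AIRmin control groups of Tnnt1 and Tnni1 were spread widely, with array 116 lowest.

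Each group held 2 males and 2 females, and in some groups the members differed between the sexes. In AIRmax pristane footpads both females lay below both males for 37 of 40 members (92.5%, against 10.9% of all genes), and the mean of the 40 members was 8.14 and 8.61 in the males and 7.20 and 7.53 in the females. The share was 37.5% of members in AIRmax controls, 7.5% in AIRmin pristane and 32.5% in AIRmin control footpads, against 17.7%, 11.8% and 13% of all genes. Both females lay above both males for 20% of members in AIRmin pristane footpads, against 13.9% of all genes. In AIRmax pristane footpads this held for 0% of members, and in each control group for 2.5%. Most members varied together from array to array, so these shares do not count independent observations. The median difference of AIRmax pristane from AIRmax control was -0.51 in males and -1.38 in females, with 39 of 40 members below 0 in each sex (2 arrays per group and sex, no test). That of AIRmin pristane from AIRmin control was -0.25 in males, with 35 of 40 members below 0, and 0.45 in females, with 3 of 40 below 0, where 1 of the 2 control females was array 116. Between the lines with pristane it was -0.64 in males (36 of 40 below 0) and -1.76 in females (39 of 40), and in controls -0.33 in males (39 of 40) and -0.05 in females (22 of 40). With sex as a covariate, 3 members were called lower in AIRmax pristane than in AIRmax control footpads (Art3, Mb and Myot) and 7 lower in AIRmax than in AIRmin pristane footpads (the 6 and Myh2).

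Fast fibre genes were set against slow fibre genes to see whether the 2 fibre types moved alike. The 13 fast genes had a median change of -0.99 in AIRmax with pristane, and the 4 slow genes (Myh7, Tnnt1, Tnni1 and Tnnc1) one of -0.89. Fast minus slow, the difference of the 2 mean log2 signals on an array, was 2.53, 2.19, 1.71 and 2.40 in AIRmax pristane footpads, against 2.49, 2.44, 1.94 and 2.46 in AIRmax control footpads. In AIRmin footpads it was 2.47, 2.26, 2.09 and 1.80 with pristane, against 2.16, 1.83, 1.33 and 1.96 in controls. The size of this number depends on the probes, so only its differences between groups can be read. The difference of group means was -0.12 in AIRmax, less than the pooled SD of 0.32 within groups, and 0.33 in AIRmin, about the size of that SD. Between the lines it was 0.05 in pristane footpads and 0.51 in control footpads, with a median difference of -0.69 for the slow and -0.06 for the fast genes in controls. The difference of 0.51 was above the pooled SD and lay between 0.35 and 0.64 with single arrays left out. The 2 control groups overlapped (1.94 to 2.49 in AIRmax, 1.33 to 2.16 in AIRmin), and the difference was not tested. The other differences moved more in proportion: without array 111 that of AIRmax was 0.04 and that between the lines with pristane 0.22, which was -0.07 without array 120, -0.06 without 109 and -0.01 without 112. That of AIRmin was 0.17 without array 115 and 0.23 to 0.45 without any other, and that of AIRmax was -0.25 without 107 and -0.23 without 109.

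Myh7, the slow myosin heavy chain, gave 5.82, 6.82, 5.90 and 5.43 in AIRmax pristane footpads, against 6.53, 6.54, 7.34 and 6.26 in AIRmax control footpads, and its fast counterpart Myh4 gave 8.32, 8.0, 7.05 and 7.42 in AIRmax pristane footpads, against 8.38, 8.80, 8.55 and 7.45 in AIRmax control footpads. In AIRmin, Myh7 gave 6.22, 5.99, 7.17 and 7.10 with pristane, against 6.85, 7.28, 7.60 and 6.10 in controls, and Myh4 gave 8.36, 8.62, 8.70 and 8.52 with pristane, against 8.44, 9.17, 8.68 and 7.50 in controls. The changes in AIRmax were -0.67 for Myh7 and -0.60 for Myh4, and the groups overlapped for both. Since Myh1, Myh2 and Myh4 are close copies of each other, a probe set of one may take up RNA of another, which was not tested.

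For the inhibitory troponins, Tnni1 gave 6.31, 7.04, 5.54 and 5.70 in AIRmax pristane footpads, against 7.32, 7.31, 7.65 and 6.74 in AIRmax control footpads, and Tnni2 gave 8.47, 8.49, 7.23 and 7.56 in AIRmax pristane footpads, against 9.02, 8.88, 8.99 and 8.55 in AIRmax control footpads. The fast gene had groups without overlap and the slow one did not, with changes of -0.92 for Tnni2 and -1.11 for Tnni1. For the calcium-binding troponins, Tnnc1 gave 7.44, 8.14, 6.71 and 6.71 in AIRmax pristane footpads, against 8.62, 8.40, 9.09 and 7.83 in AIRmax control footpads, and Tnnc2, its fast counterpart, gave 9.27, 9.42, 8.18 and 8.63 in AIRmax pristane footpads, against 10.09, 10.0, 10.21 and 9.56 in AIRmax control footpads. The changes were -1.09 for Tnnc2 and -1.24 for Tnnc1. For the tropomyosin-binding troponins, Tnnt1 gave 6.90, 7.38, 6.55 and 6.51 in AIRmax pristane footpads, against 7.29, 7.38, 7.67 and 6.87 in AIRmax control footpads, and Tnnt3 gave 10.35, 10.61, 9.10 and 9.33 in AIRmax pristane footpads, against 10.88, 10.82, 10.91 and 10.51 in AIRmax control footpads. This was the pair with the least alike changes, of -0.93 for the fast Tnnt3 and -0.47 for the slow Tnnt1, and Tnnt3 minus Tnnt1 changed by -0.47 in AIRmax and by 0.41 in AIRmin.

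In AIRmin, Tnni2 minus Tnni1 was 1.58 ± 0.38 with pristane and 0.98 ± 0.62 in controls, and Tnnc2 minus Tnnc1 was 0.96 ± 0.45 with pristane and 0.75 ± 0.61 in controls (SD, n = 4 each). Tnnc2 gave 10.29, 9.94, 10.52 and 9.71 with pristane in AIRmin, against 10.35, 10.32, 10.08 and 8.99 in AIRmin controls, and Tnnt3 gave 11.16, 10.95, 11.18 and 10.79 with pristane, against 10.99, 11.28, 11.13 and 10.12 in controls. Array 116 was the lowest of the AIRmin controls for both of these fast genes.

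**Figure D4:**
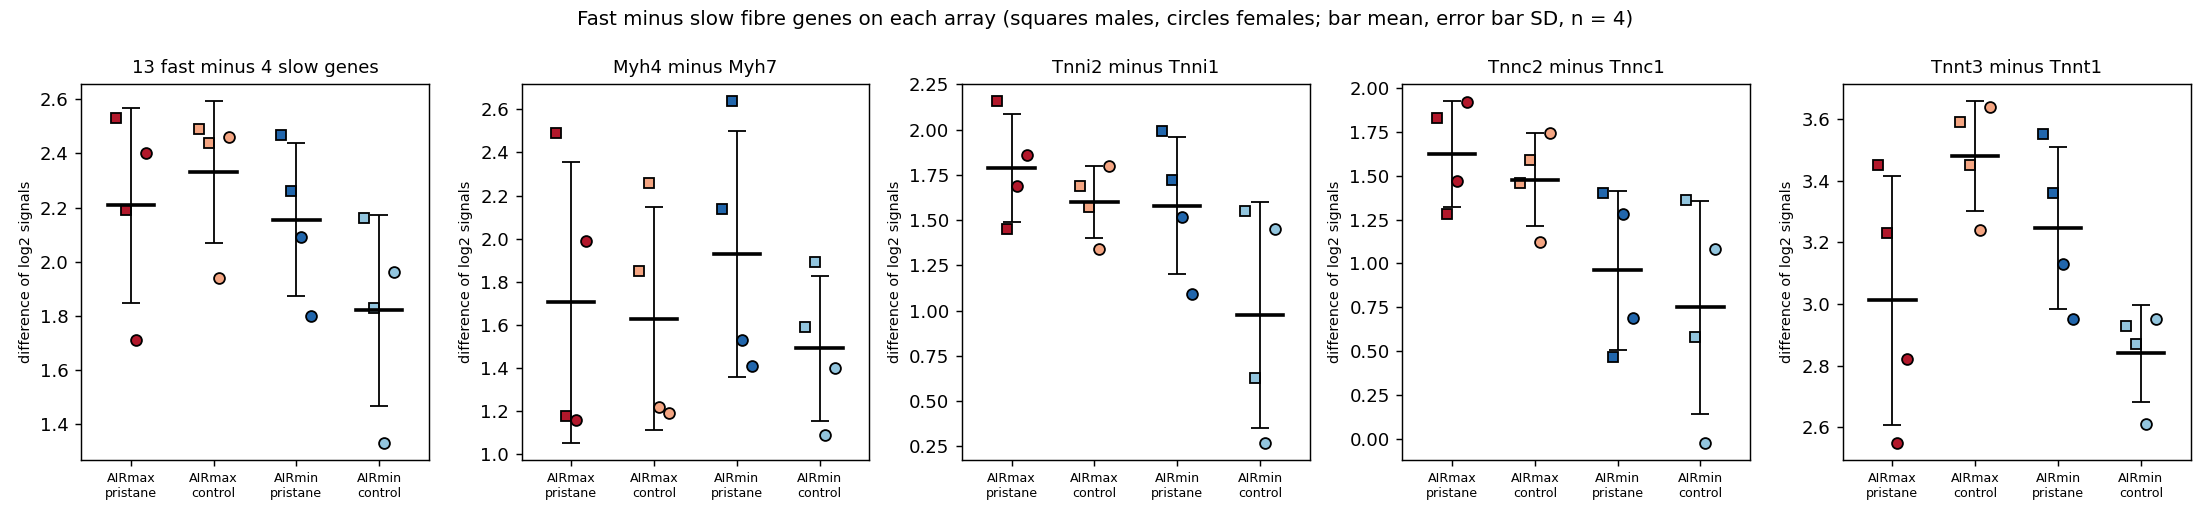
Fast minus slow difference of log2 signals on each array of the 4 groups, for the 13 fast and 4 slow members and for 4 pairs of counterparts (squares males, circles females, thick bar mean, error bar SD, n = 4). The AIRmax pristane and AIRmax control means of the first panel, 2.21 and 2.33, lie closer together than the 2 AIRmin means, 2.16 and 1.82, and the groups overlap in all panels except Tnnt3 minus Tnnt1, where AIRmax controls lie above AIRmin controls and the 2 AIRmin groups only meet at 2.95.

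Most members varied together from array to array. Over the 16 arrays, 30 of 40 had a Pearson r above 0.9 with the mean of the other members (median 0.955), and 25 did so within groups (median 0.93). These values describe genes that share arrays, tissue pieces and groups. The lowest were those of Myo18b (-0.24), Sln (0.39), Myh7 (0.76) and Art3 (0.78). Myo18b, an unconventional myosin needed for sarcomere assembly, is named by 20 probe sets, and the brightest of them was 0.12 higher in AIRmax than in AIRmin pristane footpads, whereas 19 of the 20 were lower, by a median of -0.74 within a range of -1.24 to 0.12. In 8 of the 20 the groups did not overlap, and 17 of the 20 were lower in AIRmax pristane than in AIRmax control footpads, so that the sign for this gene depended on the probe set.

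The 10 genes outside the list that were most like the members' mean over the 16 arrays were Srl (r = 0.988), Myom1, Jph1, Mybpc1, Trdn, Cap2, Rpl3l, Ppp1r3a, Tmod4 and Smyd1 (r = 0.980). Several have known places in muscle: sarcalumenin (Srl), junctophilin (Jph1) and triadin (Trdn) in the calcium store, and myomesin (Myom1), myosin-binding protein C (Mybpc1) and tropomodulin (Tmod4) in the sarcomere. Of the 10, all but Cap2 and Rpl3l are also in the muscle lists counted below, where Tmod4 is in the energy list. Srl averaged 6.96 in AIRmax pristane footpads, against 8.13 in AIRmax control footpads, and 8.44 in AIRmin footpads with pristane, against 8.44 in AIRmin controls. Trdn averaged 7.41 in AIRmax pristane footpads, against 8.68 in AIRmax control footpads, and 8.90 in AIRmin footpads with pristane, against 8.78 in AIRmin controls.

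Further muscle lists were counted beside the members, and the mean log2 signal of each was lower in AIRmax than in AIRmin pristane footpads. In AIRmax against AIRmin pristane footpads, the other sarcomere and Z disc genes had 4 of 22 called lower (Tpm1, Smpx, Klhl41 and Smyd1), where 0.507% of all genes were, and a median of -0.93. The slow fibre and oxidative list had 3 of 10 called lower and a median of -0.61, namely the slow light chain Myl3 (-0.75), the calcineurin-binding Myoz2 (-1.45) and the Z disc protein Csrp3 (-2.23, SE 0.38, adjusted p = 0.0327). The energy list had 2 of 16 lower, mitochondrial creatine kinase Ckmt2 (-1.23) and the insulin-dependent glucose transporter Slc2a4 (-1.13), and the dystrophin complex and membrane list had 3 of 9 lower, dystrophin Dmd (-0.97), sarcoglycan Sgca (-1.08) and the membrane repair gene Trim72 (-0.96). The excitation-contraction list had 0 of 13 called (11 with an unadjusted p below 0.05, against 18.8% of all genes) and a median of -0.65. In the same contrast, limma called 0 genes of the neuromuscular junction list (9 genes, 6 at an unadjusted p below 0.05, median -0.27), the myogenic factor and regeneration list (16 genes, 6, median -0.12) and the muscle atrophy list (10 genes, 5, median -0.10).

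In AIRmax pristane against AIRmax control footpads no gene of these muscle lists was called by limma. The medians were -0.51 for the other sarcomere genes (10 of 22 at an unadjusted p below 0.05, against 14.4% of all genes), -0.71 for the energy list (12 of 16), -0.43 for the excitation-contraction list (6 of 13), -0.38 for the dystrophin list (4 of 9), -0.28 for the slow fibre list (5 of 10), 0.02 for the neuromuscular junction list (1 of 9), -0.02 for the myogenic list (2 of 16) and -0.12 for the atrophy list (4 of 10). In AIRmin the medians of these 8 lists lay between -0.13 and 0.14. The heart list had a median of -0.02 in AIRmax with pristane and none of 8 genes with an unadjusted p below 0.05, while the smooth muscle list had a median of -0.68, with 4 of 7. Mean log2 signals were low for the heart list (5.06 to 5.46) and the neuromuscular junction list (5.17 to 5.83). The median signal over all genes was 6.154. Whether the genes of these 2 lists were above background in the footpad was not tested.

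Some markers of other cells of the footpad changed as well. The mean of 11 macrophage and monocyte genes was 9.40 to 9.78 in AIRmax pristane footpads, against 8.90 to 9.23 in AIRmax controls, and 8.30 to 8.86 in AIRmin pristane footpads, against 8.96 to 9.20 in AIRmin controls. Cd68 (0.81), Cd14 (1.58) and Msr1 (1.82) were called higher in AIRmax with pristane, and these and Adgre1 (1.53) higher in AIRmax than in AIRmin pristane footpads. Fibroblast genes Col3a1 (1.74) and Lum (1.20) and the osteoclast protease Ctsk (1.89) were also higher in AIRmax than in AIRmin pristane footpads. The mean of 10 adipocyte genes was 7.34 to 8.37 in AIRmax pristane footpads, against 8.44 to 9.20 in AIRmax controls, and 7.81 to 8.74 in AIRmin pristane footpads, against 8.66 to 9.25 in AIRmin controls, with 0 called in limma and 9 of 10 at an unadjusted p below 0.05 in AIRmax. The 12 neutrophil and granulocyte precursor genes averaged 10.47 ± 1.19 in AIRmax pristane footpads, 10.30 ± 0.80 in AIRmax controls, 9.15 ± 1.47 in AIRmin pristane footpads and 8.40 ± 1.19 in AIRmin controls (SD, n = 4 each), with none called in limma but all 12 at an unadjusted p below 0.05 between AIRmax and AIRmin controls (16.8% of all genes). None of the keratinocyte, endothelial and Schwann cell markers was called (1 of 8, 1 of 7 and 2 of 4 at an unadjusted p below 0.05 in AIRmax, against 14.4% of all genes), and their medians in AIRmax with pristane were -0.32, -0.22 and -0.30, and that of the bone list was -0.30. The mean of the bone list differed by -0.96 between AIRmin pristane and AIRmin control footpads, that of the fibroblast list by -0.84 and that of the endothelial list by -0.52. Between AIRmax and AIRmin pristane footpads, the contrast of the 6 muscle calls, the means differed by -0.88 for keratinocytes, 0.83 for fibroblasts and 0.79 for bone. Lum averaged 10.57 in AIRmax pristane footpads, against 10.49 in AIRmax controls, and 9.37 in AIRmin pristane footpads, against 10.24 in AIRmin controls. The part of these cells in the muscle values was not tested.

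**Figure D5:**
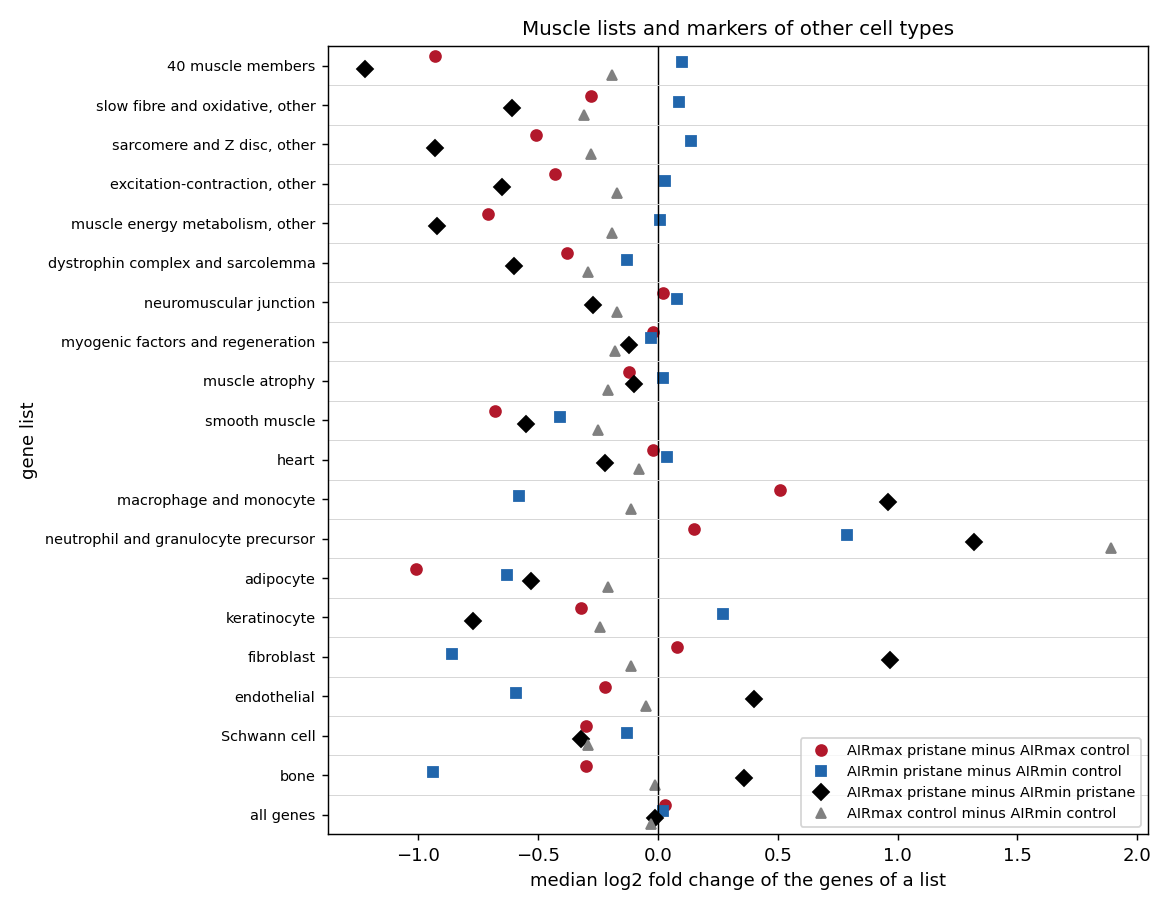
Median log2 fold change (horizontal axis) of the 40 members, of 18 gene lists and of all genes (rows) in the 4 comparisons of 2 groups, each in its own symbol. The 40 members lie at -0.93 in AIRmax with pristane and at -1.22 between the lines with pristane, further below 0 than the other muscle lists, whereas the macrophage list lies at 0.51 and 0.96.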

How the data were processed

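The authors deposited normalized log2 signals for each probe set. RMA at the gene level is named in the titles of the samples and MAS5 in the submitters' notes, in both cases without a version. Of 35556 probe sets, 21789 named 1 gene in the array's annotation, 1621 named several and 12146 none, and those naming 1 gene gave 19938 genes, each represented by its brightest probe set over 16 arrays. For each pair of groups, limma 3.58.1 in R 4.3.3 (lmFit, then eBayes) was run on its 8 arrays, and the interaction on all 16. P values were adjusted by Benjamini-Hochberg over all genes, with a threshold of 0.05 for a call. The study's own test, SAM, was not used here. Fits were tested on simulated data with known changes.

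The members and lists were chosen with earlier results of these data known. All 40 members are accounted for by role, with full statistics for those called and the 4 smallest p of each comparison, and array values for these and the fast and slow counterparts. Outside the members, called list genes and the 10 genes most like the members' mean are named. Of 203 list genes, 188 were on the array through probe sets naming 1 gene, and the others were not analysed here. Depth is not counted on arrays, so precision comes from the spread of 4 arrays per group. Alternatives were the mean of probe sets, brighter genes only (above the median signal), a covariate for sex, 1 fit over all 16 arrays, arrays standardized or quantile normalized again, a prior that is trended and robust, and each array left out. Added later were the 35 members not named by the study and the 20 probe sets of Myo18b. Python 3.11.15 with pandas 2.3.3, numpy 2.4.6 and matplotlib 3.10.9 made tables and figures.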

Additional observations from a re-analysis of the deposited data

Results flagged for a closer look

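An array apart from the other 3 of its group (by its gap to the nearest of them over the whole range, Dixon's test) was found in 13 of 168 tested groups of values, where chance gives about 1 in 20. The tested groups share arrays and most members vary together, so the 13 are not independent and cannot be weighed against that rate.

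Array 108, an AIRmax control female, was low for Tpm2 (9.10, others 9.54 to 9.62), Actn2 (8.12, others 8.75 to 8.85), Tcap (7.97, others 8.47 to 8.54), Ckm (10.36, others 10.85 to 10.89), Mb (10.20, others 11.06 to 11.14) and the mean of the 40 members (8.35, others 8.86 to 8.93). It was lowest of its group for 37 of 40 members. Array 116, an AIRmin control female, was low for Mylpf (8.09, others 9.23 to 9.25), Ryr1 (6.95, others 8.10 to 8.19) and Cacna1s (6.65, others 7.75 to 7.95).

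Array 119, an AIRmin pristane female, was high for Cacna1s (8.12, others 7.70 to 7.74) and for the brightest probe set of Myo18b (10.46, others 9.92 to 9.98). Array 120 of the same group was low for Mb (11.08, others 11.29 to 11.32). Array 107, an AIRmax control female, was low for fast minus slow (1.94, others 2.44 to 2.49).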

How the results depend on the processing

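No alternative reversed a direction among the calls. For single genes, 313 values kept their side of the threshold, including those of members not called in the reported fit, and 40 values of called genes lost it. Among the calls, Art3 in the AIRmax response stayed past the threshold in 9 of 15 alternatives. Between the lines with pristane, Tnnc1 did so in 10 of 15, Actn2 in 8, Myot, Mb and Asb5 in 9 each, and Yipf7 in 9 of 14. Summary values stayed near the reported ones in 258 cases and moved in 53. For the members' median, near meant a shift smaller than its pooled SD within groups, 0.47. A change of sign could thus count as near, as for the AIRmin response without array 116 (-0.21, against 0.10). A count that was 0 both times also counted as near. Genes called in AIRmax pristane against AIRmax control footpads were 56, and 22 among brighter genes only, 109 after adjusting for sex and 338 when 1 fit held all 16 arrays. Members called there were 1, and 2 with all 16 arrays, 3 with sex, and 0 among the 35 members the study does not name. In AIRmin pristane against AIRmin control footpads 0 genes were called, and 44 among brighter genes, 4 after quantile normalization, 11 with all 16 arrays, 2 with sex and 33 with a trended robust prior. In AIRmax against AIRmin pristane footpads 271 genes were called, and 1519 with all 16 arrays and 173 with sex, and members called were 6, and 26 with all 16 arrays. In AIRmax against AIRmin control footpads 16 genes were called, and 7 among brighter genes, 27 after quantile normalization, 35 with all 16 arrays and 31 with sex. The interaction gave 34 genes, and 61 with standardized arrays. The cause of these shifts was not tested beyond the number of arrays or genes that each setting changes.

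With single arrays left out, in the order AIRmax response, AIRmin response, lines with pristane, lines in controls and interaction, genes called ranged from 4 to 107, 0 to 138, 14 to 520, 9 to 19 and 15 to 120. Members called ranged from 0 to 1, 0 to 0, 0 to 30, 0 to 0 and 0 to 0. The members' median log2 difference ranged from -1.18 to -0.69, -0.21 to 0.27, -1.42 to -0.95, -0.48 to -0.03 and -1.34 to -0.72. Fast minus slow differences ranged from -0.25 to 0.04, 0.17 to 0.45, -0.07 to 0.22, 0.35 to 0.64 and -0.59 to -0.29. No paired analysis was possible because the array numbers differ between groups and nothing in the labels pairs arrays. Signals near the level of Xist in males, as for Sln and Yipf7, limit what can be measured of those genes.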
